A study of Mus musculus with 9 samples.

Results

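Several enzymes of glycolysis exist in the mouse as a widely expressed form and as a form that is made in the male germ line. Described here are 10 such genes, chosen by name and measured in whole testis RNA. The germ-cell forms are *Gapdhs*, *Pgk2*, *Ldhc*, *Aldoart1* and *Eno4*, and the somatic forms are *Gapdh*, *Pgk1*, *Ldha*, *Ldhb* and *Aldoa*. They are 10 of 32035 genes for which transcript values were summed. *Gapdh* is also given as a sum with *Gm13394*, a processed pseudogene of almost the same sequence, and *Eno4* is set against *Eno1*, which is no member of the set.

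The testes came from C57Bl6/N males aged 15 weeks, with 3 animals in each of 3 groups. The wild type (WT) carried no mutation of *Kpna6*, the gene of the nuclear import receptor importin α7. In *Kpna6* ΔIBB/ΔIBB mice, exon 2 is missing and a shortened protein without the importin β binding domain is made, and these males are sterile. *Kpna6*-/- mice carry a gene trap in intron 1 that removes the protein from other organs, but their germ cells still make the full-length protein from a start downstream of the trap, their Sertoli cells lack it, and the males are fertile. *Kpna6* itself was at 98.3, 163 and 176 TPM (a level per transcript length, scaled to the same total in every testis) in WT, at 32.0, 34.2 and 34.8 TPM in ΔIBB/ΔIBB and at 134, 137 and 141 TPM in *Kpna6*-/- testes. It was thus lowest in the testes labelled ΔIBB/ΔIBB, and WT replicate 1 was the lowest of the other 6.

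Sperm run much of their motility on glycolysis in the flagellum. The genes for these steps are switched to germ-cell forms during meiosis and after it. *Gapdhs* is the glyceraldehyde-3-phosphate dehydrogenase of the fibrous sheath of the tail. *Pgk2* is an intronless copy of the X-linked *Pgk1*, whose chromosome is silenced in meiosis. *Ldhc* is the lactate dehydrogenase of spermatocytes, spermatids and sperm, *Aldoart1* is an intronless aldolase gene active in spermatids, and *Eno4* is a sperm enolase that is needed for a normal tail. In the tubule, Sertoli cells make lactate from glucose and pass it to the germ cells.

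Where the genes lie bears on how well reads could tell them apart, so their positions are given on build mm10. *Gapdhs* lies on chr7:30729775-30743681 (minus strand) and *Gapdh* on chr6:125161715-125166467 (minus strand). *Pgk2* lies on chr17:40207015-40208640 (minus strand) and *Pgk1* on chrX:106187100-106203699 (plus strand). *Ldha* (chr7:46841475-46855627) and *Ldhc* (chr7:46861203-46878142) are neighbours on the plus strand, 5576 bases apart, and *Ldhb* lies on chr6:142490249-142507957 (minus strand). *Aldoa* lies on chr7:126795234-126800751 (minus strand), *Aldoart1* on chr4:72850583-72852634 (minus strand) and *Eno4* on chr19:58943425-58971421 (plus strand).

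The coding sequences of most pairs were far enough apart for short k-mers to separate them. *Pgk2* and *Pgk1* were identical at 79.3% of 1251 coding bases, with a longest shared run of 22 bases, and *Ldhc* and *Ldha* at 73.2% of 996 bases, with a longest run of 20 bases. *Gapdhs* and *Gapdh* shared no run longer than 20 bases. *Aldoart1* and *Aldoa* were closer, with 94.2% identity over 1092 coding bases and a longest shared run of 86 bases. A search was made for near-identical transcripts of genes outside the set. It asked for at least 95% identity over at least 100 bases and over a share of 0.5 of the shorter transcript. *Gapdhs*, *Pgk2*, *Ldha*, *Ldhc*, *Aldoa*, *Aldoart1* and *Eno4* had no such near-identical gene, and *Gapdh* had 98. Hits between members were left out, so the search could not show *Aldoa* and *Aldoart1* as copies of each other.

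*Gm13394* is the copy of *Gapdh* that matters most for these libraries, so its sequence is shown beside that of *Gapdh*. The single transcript of *Gm13394* (1000 bases, chr2:28933610-28934609, minus strand) aligned without a gap to bases 241 to 1240 of the transcript *Gapdh-203*, across the coding region, with 1 mismatch, A586C, counted from the 5′ end of *Gapdh-203*. The mismatch falls on base 1 of codon 116, in exon 4, at chr6:125163016 in *Gapdh* and at chr2:28934264 in *Gm13394*. The differing base is in capitals in the 51 bases around it.
Gapdh-203: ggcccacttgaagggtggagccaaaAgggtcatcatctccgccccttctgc
Gm13394: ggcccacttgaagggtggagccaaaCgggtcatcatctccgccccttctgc
The first of these windows was present in 56 transcripts of the annotated set and the second in 1, so that within the aligned stretch this base alone separates *Gm13394* from *Gapdh-203*.

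The promoters of a germ-cell and a somatic member that moved in opposite directions are also shown, as the 150 bases before the RefSeq transcription start (GRCm38.p6), with motif matches in capitals. Of the 10 genes, 9 were listed in the promoter table and *Aldoart1* was not. The *Gapdhs* window (chr7:30743682-30743831, minus strand) held TGACATCA, a variant of the cAMP response element, once on each strand (TGATGTCA being the minus-strand match), 94 and 76 bases before the start, and the *Ldhb* window (chr6:142507958-142508107, minus strand) held CCAAT once.
Gapdhs: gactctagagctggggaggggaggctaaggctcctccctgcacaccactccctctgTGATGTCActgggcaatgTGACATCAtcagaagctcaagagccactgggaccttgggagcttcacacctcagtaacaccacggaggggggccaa
Ldhb: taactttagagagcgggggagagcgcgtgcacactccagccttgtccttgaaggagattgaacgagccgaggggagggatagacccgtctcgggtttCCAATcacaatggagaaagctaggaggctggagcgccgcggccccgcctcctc
At least 1 TGACATCA was found in 2.32% of 32851 promoter windows of this length, and 2 or more in 0.152% of them, on both strands together. This motif was added to the search after the *Gapdhs* sequence had been read. The window of another listed *Gapdhs* start also held it once on each strand, 70 and 52 bases before that start. Of the other motifs, TGACG (13.3% of windows) stood 61 and 47 bases before a listed *Ldhc* start, in no other *Ldhc* window, and also in windows of *Ldha*. GGGCGG (28.6% of windows) stood 78 bases before the same *Ldhc* start and also in windows of *Ldha* and *Aldoa*. CCAAT (24.5% of windows) stood 86 and 52 bases before the *Pgk2* start and also in windows of *Pgk1* (58 bases before the start) and *Aldoa*. TATAAA (7.57% of windows) was in no window of a member. These are letter matches and not measured binding sites.

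In WT testes the germ-cell form was far more abundant than the somatic form for glyceraldehyde-3-phosphate dehydrogenase, phosphoglycerate kinase and lactate dehydrogenase. *Aldoart1* was less abundant than *Aldoa*, and *Eno4* less abundant than *Eno1*. *Ldhc* had the highest level of the set, at 3357, 3571 and 3710 TPM, which put it at rank 10 of 32035 genes by mean TPM. *Gapdhs* followed at 1708, 1721 and 1591 TPM (rank 42). Then came *Ldha*, the somatic lactate dehydrogenase A, at 771, 756 and 795 TPM, and *Pgk2* at 756, 730 and 720 TPM, whose highest WT testis all but equalled the lowest for *Ldha*. *Aldoa* was at 396, 373 and 373 TPM, and *Eno4* at 43.7, 46.9 and 48.8 TPM. *Pgk1* was the lowest, at 15.3, 13.1 and 16.3 TPM (rank 7529). Between *Aldoa* and *Eno4* stood *Gapdh* (88.5 TPM ± 0.53, SD, n = 3), *Ldhb* (84.2 ± 5.05) and *Aldoart1* (82.4 ± 2.38), and neighbours among these 3 overlapped between testes. The other neighbours in the order did not overlap.

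**Figure D1:**
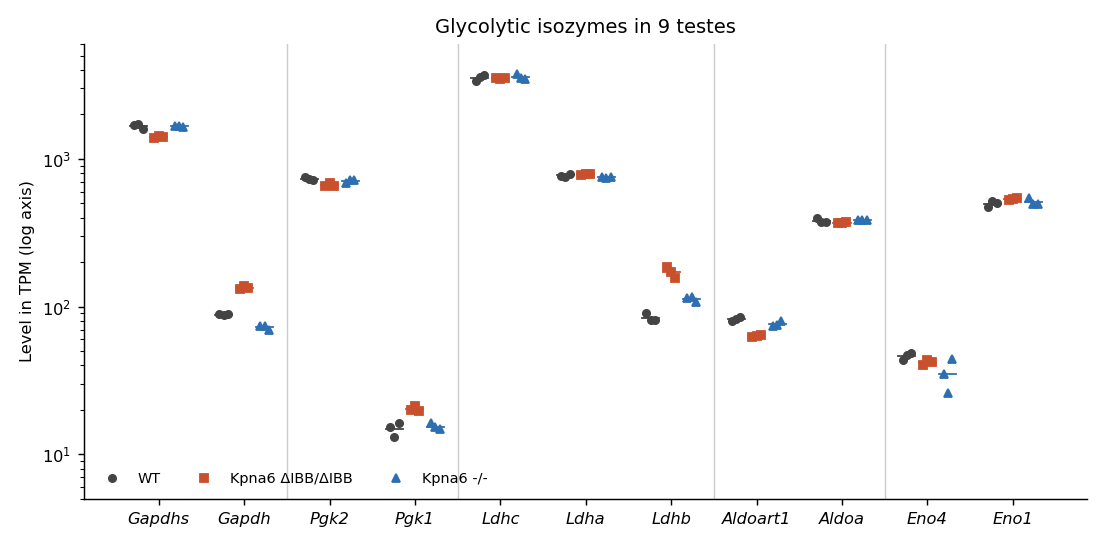
Level of each isozyme gene and of *Eno1* in 9 testes, in TPM on a log axis, with points for testes and short lines for group means (n = 3 per group). *Ldhc* and *Gapdhs* are the highest and *Pgk1* the lowest in each group, and *Ldhb* is the gene whose groups stand farthest apart.

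The question of the design was how the loss of a functional importin α7 changes the testis transcriptome. In ΔIBB/ΔIBB against WT testes, all 5 germ-cell forms were lower and 3 of the 5 somatic forms were higher. By edgeR's quasi-likelihood test with Benjamini-Hochberg adjustment over all genes tested, 10 of 10 members passed an adjusted p of 0.05, 3 of them higher (*Gapdh*, *Pgk1*, *Ldhb*) and 7 lower. The same test called 36.6% of 18797 genes in this comparison (17.7% higher, 18.9% lower). The median log2 fold change was -0.16 over the members and 0.01 over all genes tested. Without a correction for composition (library size only) the median of all genes moved to 0.11, calls over all genes went from 3327 higher and 3547 lower to 5416 and 2326, and 7 members were called (3 higher, 4 lower), with *Ldha*, *Ldhc* and *Aldoa* not among them.

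In *Kpna6*-/- against WT testes, 2 of 10 members were called, *Ldhb* higher and *Gapdh* lower, where the test called 1.6% of 18681 genes (0.889% higher, 0.712% lower). The median was -0.02 over the members and 0.00 over all genes. In ΔIBB/ΔIBB against *Kpna6*-/- testes, 8 of 10 were called (3 higher, 5 lower), against 30.3% of 18752 genes (13.5% higher, 16.8% lower). The comparisons share samples and are not independent of each other.

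**Figure D2:**
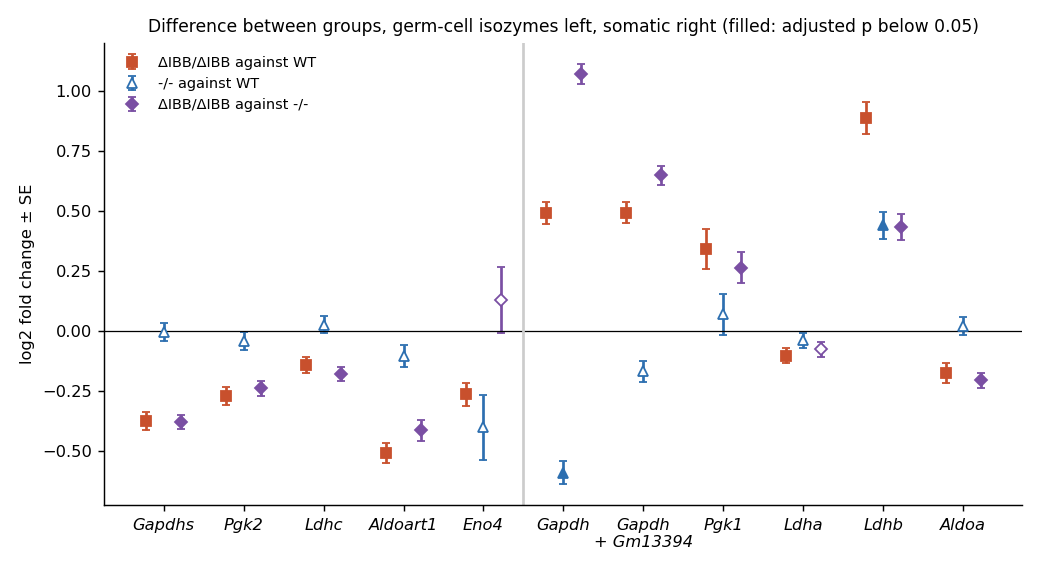
Log2 fold change (± SE from edgeR, n = 3 per group) of each member and of the sum of *Gapdh* and *Gm13394* in 3 comparisons, with germ-cell forms on the left of the grey line, somatic forms on the right and filled symbols where the adjusted p was below 0.05. Against WT, the ΔIBB/ΔIBB values of the germ-cell forms all lie below 0 and those of *Gapdh*, *Pgk1* and *Ldhb* above it, while in *Kpna6*-/- testes filled symbols are seen for *Gapdh* and *Ldhb*.

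Cell type markers moved in the same comparison, and these values stand beside all results below. Of 12 Sertoli cell markers, 12 were higher in ΔIBB/ΔIBB than in WT testes (median log2 fold change 0.58), and their summed level was 1041 to 1128 TPM in WT, 1698 to 2007 TPM in ΔIBB/ΔIBB and 1248 to 1338 TPM in *Kpna6*-/- testes. All 7 round spermatid markers were lower in ΔIBB/ΔIBB testes (median -0.52), as were 8 of 8 of elongating spermatids (median -0.40), while 0 of 6 pachytene spermatocyte markers were called (median -0.04). In *Kpna6*-/- against WT testes 4 Sertoli markers were higher (median 0.24) and no round or elongating spermatid marker was called. These levels are shares of RNA and not counts of cells. By the paper's counts in adult testes, Sertoli cells per tubule were fewer in both mutant lines. Round spermatids were fewer in both lines too, and pachytene spermatocytes dropped further in ΔIBB/ΔIBB testes only. The elongating spermatid markers include *Tnp1*, *Tnp2*, *Prm1* and *Prm2*. By the paper's PCR, these were also lower in sorted round spermatids of ΔIBB/ΔIBB mice, where other key postmeiotic genes did not differ significantly. So the markers need not follow cell number alone. In whole testis RNA, fewer cells of a type and less RNA per cell cannot be told apart, and the part of cell composition in the results was not tested. ΔIBB/ΔIBB replicate 3 also held 82.2 TPM of 6 epididymis markers against 3.58 to 8.49 TPM in the other testes. Without it, 10 of 10 members were still called against WT.

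At the glyceraldehyde-3-phosphate dehydrogenase step, the germ-cell form fell and the somatic form rose in ΔIBB/ΔIBB testes. *Gapdhs* was at 1385, 1435 and 1409 TPM there, against 1591 to 1721 TPM in WT and 1680, 1671 and 1645 TPM in *Kpna6*-/- testes. The ΔIBB/ΔIBB testes lay below all others. The log2 fold change was -0.37 ± 0.037 (SE, adjusted p = 4.15e-05) against WT and -0.38 (adjusted p = 4.82e-06) against *Kpna6*-/-. Between *Kpna6*-/- and WT testes *Gapdhs* differed by 0.00 on the log2 scale (adjusted p = 0.971).

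*Gapdh*, the housekeeping enzyme of all cells, was at 88.8, 87.9 and 88.8 TPM in WT testes, at 133, 138 and 133 TPM in ΔIBB/ΔIBB and at 74.4, 74.1 and 69.9 TPM in *Kpna6*-/-. The 3 groups did not overlap. *Gapdh* rose in ΔIBB/ΔIBB against WT testes (log2 fold change 0.49 ± 0.045, adjusted p = 2.58e-05) and was called lower in *Kpna6*-/- against WT (-0.59 ± 0.049, adjusted p = 7.37e-05).

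The lower value in *Kpna6*-/- testes went with reads assigned to other genes of almost the same sequence. *Gm13394* held 2.5, 0 and 5.1 estimated counts in WT, 5.3, 0 and 7.7 in ΔIBB/ΔIBB and 577, 567 and 434 in *Kpna6*-/- testes. *Gm7336*, another processed pseudogene of *Gapdh*, was at 2.72, 5.71 and 4.62 TPM in WT, at 3.50, 2.08 and 5.53 TPM in ΔIBB/ΔIBB and at 15.0, 14.4 and 16.5 TPM in *Kpna6*-/- testes. Both were thus higher in every *Kpna6*-/- testis than in any other. The same held within the *Gapdh* gene for *Gapdh-206*, a short transcript with a retained intron, at 24.1, 23.1 and 17.7 TPM in *Kpna6*-/- testes and at 0 to 8.95 TPM in the other 6.

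With *Gm13394* added, the call in *Kpna6*-/- testes was lost. The sum was 88.7 TPM ± 0.66 (SD, n = 3) in WT, 135 ± 2.48 in ΔIBB/ΔIBB and 103 ± 6.42 in *Kpna6*-/- testes. On counts it differed from WT by -0.17 ± 0.045 (adjusted p = 0.0935) in *Kpna6*-/- testes, while on the TPM scale it was above WT, at 96.1 to 109 TPM against 87.9 to 89.1. The sign of this difference thus depends on the unit. With all 98 near-identical genes added, which held 26.9% of the summed counts, the log2 fold change was -0.02 (adjusted p = 0.852). In ΔIBB/ΔIBB against WT testes the sum with *Gm13394* rose by 0.49 (adjusted p = 2.54e-05), the same as *Gapdh* alone. With all 98 near-identical genes added, the rise was smaller, at 0.355 (adjusted p = 8.87e-05). Why the reads of *Kpna6*-/- testes were assigned differently was not tested. Within 5 Mb of *Gapdh*, 11 of 137 genes tested were called in *Kpna6*-/- against WT testes (8.03%, against 1.6% of all genes), and around *Ldhb* on the same chromosome 0 of 55.

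**Figure D3:**
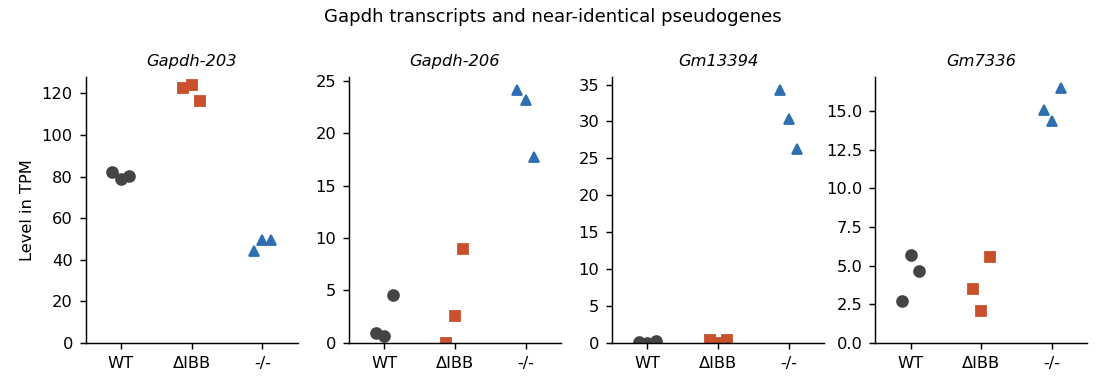
Levels in TPM of the main *Gapdh* transcript, of the retained-intron transcript *Gapdh-206* and of the pseudogenes *Gm13394* and *Gm7336*, with 1 point per testis and each axis starting at 0. *Gapdh-203* is lowest and the other 3 are highest in the *Kpna6*-/- testes, where *Gm13394* is at 26.2 to 34.3 TPM.

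The ratio of partners within a testis needs no scaling between libraries. *Gapdhs* to *Gapdh* plus *Gm13394* was 19.2, 19.6 and 17.9 in WT, 10.4, 10.4 and 10.6 in ΔIBB/ΔIBB and 15.5, 16.0 and 17.1 in *Kpna6*-/- testes. The ΔIBB/ΔIBB ratios lay below all others. The mean log2 ratio fell from 4.24 ± 0.070 to 3.39 ± 0.010 (SD, n = 3), a difference of -0.85 with a two-sided exact permutation p of 0.1, the smallest that 3 testes against 3 allow. So the share of *Gapdhs* in the TPM of this step was 95.0% ± 0.24 in WT and 91.3% ± 0.06 in ΔIBB/ΔIBB testes. The ratio in *Kpna6*-/- testes differed from WT by -0.22 in TPM but by 0.16 in estimated counts and by 0.28 with *Gapdh* alone, so its direction depends on how the copies are counted.

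At the phosphoglycerate kinase step, *Pgk2* was lower and *Pgk1* higher in ΔIBB/ΔIBB testes, and neither was called in *Kpna6*-/-. *Pgk2* was at 756, 730 and 720 TPM in WT, at 658, 685 and 653 TPM in ΔIBB/ΔIBB and at 689, 722 and 718 TPM in *Kpna6*-/- testes. The ΔIBB/ΔIBB testes again lay below all others, by a log2 fold change of -0.27 ± 0.036 against WT (adjusted p = 0.000242). *Pgk1* was at 20.1, 21.4 and 19.8 TPM in ΔIBB/ΔIBB testes, above the 13.1 to 16.3 TPM of WT and the 14.8 to 16.3 TPM of *Kpna6*-/-. It rose by 0.34 ± 0.083 against WT (adjusted p = 0.00828) and by 0.26 ± 0.064 against *Kpna6*-/- (adjusted p = 0.00863).

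The ratio of *Pgk2* to *Pgk1* was 49.3, 55.7 and 44.1 in WT, 32.8, 32.0 and 33.0 in ΔIBB/ΔIBB and 42.2, 47.4 and 48.7 in *Kpna6*-/- testes. The ΔIBB/ΔIBB values did not overlap with either group, and their spread was the smallest. The log2 difference was -0.60 against WT and -0.50 against *Kpna6*-/- (exact permutation p = 0.1 each), while *Kpna6*-/- and WT differed by -0.11 (exact permutation p = 0.4) and overlapped. *Pgk2* made up 98.0% ± 0.23 of the TPM of the step in WT and 97.0% ± 0.05 in ΔIBB/ΔIBB testes, so that the germ-cell form remained by far the larger part in all testes.

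Of *Ldha*, *Ldhb* and *Ldhc*, *Ldhb* changed most. *Ldhb* encodes the heart-type subunit, which somatic tissues with oxidative metabolism use. It was at 90.0, 81.3 and 81.2 TPM in WT, at 186, 171 and 156 TPM in ΔIBB/ΔIBB and at 115, 117 and 108 TPM in *Kpna6*-/- testes. The groups did not overlap, and the ΔIBB/ΔIBB testes were the highest. *Ldhb* rose by 0.89 ± 0.067 on the log2 scale in ΔIBB/ΔIBB testes (adjusted p = 1.39e-05) and by 0.44 ± 0.056 in *Kpna6*-/- testes (adjusted p = 0.00166), and the ΔIBB/ΔIBB testes were above *Kpna6*-/- by 0.43 ± 0.054 (adjusted p = 0.00011). The summed Sertoli cell markers had the same order of groups, also without overlap. Group means had this order too for macrophage markers (45.0, 46.8 and 64.1 TPM in WT, *Kpna6*-/- and ΔIBB/ΔIBB) and spermatogonium markers (146, 147 and 185 TPM). For both, WT and *Kpna6*-/- testes overlapped. The mean of Leydig markers was not higher in *Kpna6*-/- than in WT testes, but WT replicate 1 weighed on it. Leydig sums were 3004, 1996 and 2220 TPM in WT and 2385 to 2434 TPM in *Kpna6*-/- testes. Their median log2 fold change was 0.21 in *Kpna6*-/- against WT testes, near the 0.24 of Sertoli markers, with 0 of 8 called. The mean of peritubular and endothelial markers was not higher in *Kpna6*-/- testes either, with a median log2 fold change of 0.10 and 0 of 8 called. The part of any cell type in the *Ldhb* result was not tested.

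*Ldhc* and *Ldha* changed little. *Ldhc* was at 3543, 3487 and 3553 TPM in ΔIBB/ΔIBB and at 3739, 3540 and 3456 TPM in *Kpna6*-/- testes, overlapping with WT in both. The count test called it lower in ΔIBB/ΔIBB testes (-0.14 ± 0.033, adjusted p = 0.00639), a call that library-size scaling did not give (-0.04, adjusted p = 0.264). *Ldha* was at 773, 791 and 796 TPM in ΔIBB/ΔIBB and at 758, 744 and 750 TPM in *Kpna6*-/- testes. Its log2 fold change in ΔIBB/ΔIBB testes was -0.10 ± 0.031 (adjusted p = 0.0235) on counts and 0.02 on log2(TPM + 1) with limma (adjusted p = 0.637), so its direction depends on unit and scaling.

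Within a testis, the ratio of *Ldhc* to *Ldha* was 4.58 ± 0.20 (SD, n = 3) in WT, 4.49 ± 0.09 in ΔIBB/ΔIBB and 4.77 ± 0.16 in *Kpna6*-/- testes. WT and ΔIBB/ΔIBB values overlapped, with a log2 difference of -0.03 (exact permutation p = 0.5). *Ldhc* to *Ldhb* was 37.3, 43.9 and 45.7 in WT, 19.1, 20.4 and 22.8 in ΔIBB/ΔIBB and 32.6, 30.3 and 32.0 in *Kpna6*-/- testes. The log2 difference was -1.03 between ΔIBB/ΔIBB and WT, the largest of the 6 ratios in that comparison, and -0.42 between *Kpna6*-/- and WT (exact permutation p = 0.1 each). Of the summed TPM of *Ldha*, *Ldhb* and *Ldhc*, *Ldhb* thus took 1.92% ± 0.19 in WT, 3.81% ± 0.33 in ΔIBB/ΔIBB and 2.55% ± 0.09 in *Kpna6*-/- testes. The total for the 3 genes was 4404 ± 184, 4485 ± 31.5 and 4442 ± 153 TPM. *Ldhal6b*, a lactate dehydrogenase gene outside the set, was not in this sum. It was at 556 ± 4.46 TPM in WT, 572 ± 8.90 in ΔIBB/ΔIBB and 550 ± 7.25 in *Kpna6*-/- testes.

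**Figure D4:**
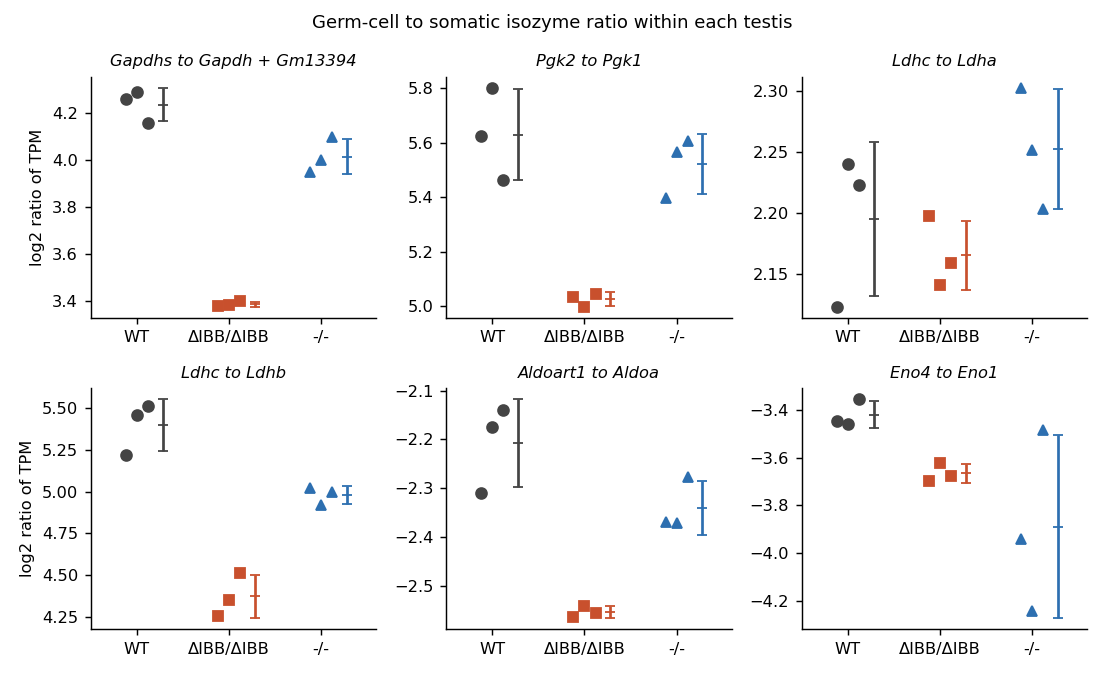
Log2 ratio of TPM of a germ-cell form to a somatic form within each testis, in 6 panels with their own axes, with 1 point per testis and the group mean ± SD beside it (n = 3). The ΔIBB/ΔIBB points lie below the WT points in all panels but *Ldhc* to *Ldha*, where they overlap.

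At the aldolase step, the germ-cell gene *Aldoart1* fell in ΔIBB/ΔIBB testes, and *Aldoart2* and *Aldoa* were called lower too, by less. *Aldoart1* was at 79.9, 82.7 and 84.6 TPM in WT, at 62.2, 63.4 and 64.1 TPM in ΔIBB/ΔIBB and at 74.1, 75.0 and 79.6 TPM in *Kpna6*-/- testes. The 3 groups did not overlap in TPM. *Aldoart1* had the largest fall of the members in ΔIBB/ΔIBB testes, by 0.51 ± 0.042 on the log2 scale (adjusted p = 1.71e-05), and differed by -0.10 in *Kpna6*-/- testes (adjusted p = 0.31). *Aldoa*, the muscle-type aldolase that most cells express, was at 368, 369 and 377 TPM in ΔIBB/ΔIBB testes, overlapping with WT, and was called lower on counts (-0.17 ± 0.040, adjusted p = 0.00587) but not with library-size scaling (-0.08, adjusted p = 0.151).

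The ratio of *Aldoart1* to *Aldoa* was 0.202, 0.222 and 0.227 in WT, 0.169, 0.172 and 0.170 in ΔIBB/ΔIBB and 0.193, 0.193 and 0.206 in *Kpna6*-/- testes. The ΔIBB/ΔIBB testes lay below all others, with a log2 difference of -0.35 from WT (exact permutation p = 0.1). *Aldoart2*, the other intronless aldolase gene, is no member and was at 299 ± 7.56 TPM in WT and 277 ± 0.88 TPM in ΔIBB/ΔIBB testes, where it was also called lower (-0.24 ± 0.035, adjusted p = 0.000432). Together the 3 genes made 762 ± 3.79 TPM in WT and 712 ± 4.93 TPM in ΔIBB/ΔIBB testes. Of the WT total, *Aldoa* took 49.94% ± 1.51, *Aldoart2* 39.25% ± 1.17 and *Aldoart1* 10.81% ± 0.35.

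Below the gene level, *Aldoa* consists mainly of a pair of transcripts that moved apart, a feature singled out after its values were seen. *Aldoa-202* encodes 418 residues and *Aldoa-201* encodes 364. *Aldoa-202* was at 187, 176 and 171 TPM in WT, at 152, 152 and 152 TPM in ΔIBB/ΔIBB and at 173, 171 and 175 TPM in *Kpna6*-/- testes. *Aldoa-201* was at 144, 135 and 145 TPM in WT and at 153, 148 and 160 TPM in ΔIBB/ΔIBB testes, with 147, 150 and 143 TPM in *Kpna6*-/-. The first thus stood lower in ΔIBB/ΔIBB than in all other testes. The ratio of the first to the second was 1.26 ± 0.06 in WT, 0.989 ± 0.04 in ΔIBB/ΔIBB and 1.18 ± 0.04 in *Kpna6*-/- testes, a log2 difference of -0.35 between ΔIBB/ΔIBB and WT (exact permutation p = 0.1). Transcript levels are kallisto estimates from reads that both share in part. Which cells made each transcript was not tested. *Aldoa* summed over its transcripts may thus not be a purely somatic partner of *Aldoart1*.

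**Figure D5:**
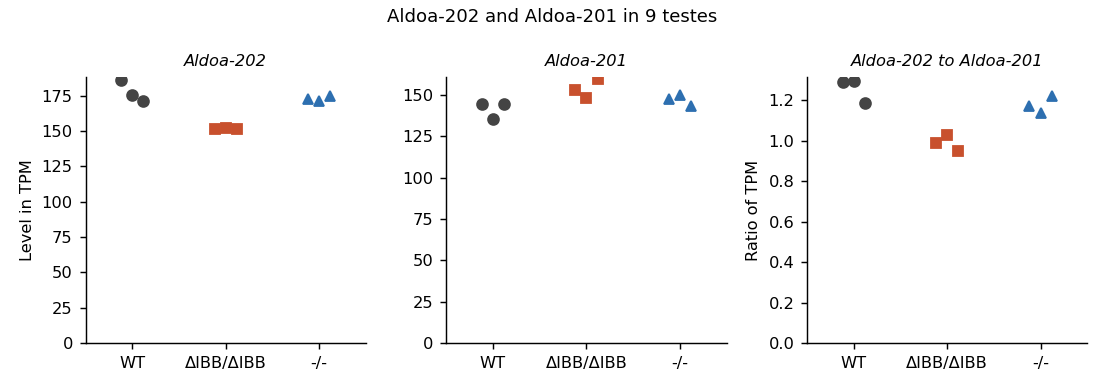
Levels of *Aldoa-202* and *Aldoa-201* in TPM and their ratio in each testis, with 1 point per testis and axes starting at 0. The ratio is near 1 in the ΔIBB/ΔIBB testes (0.950 to 1.03) and between 1.14 and 1.30 in the other 6.

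At the enolase step, *Eno4* was at 43.7, 46.9 and 48.8 TPM in WT, at 40.6, 43.4 and 42.2 TPM in ΔIBB/ΔIBB and at 35.2, 26.3 and 44.3 TPM in *Kpna6*-/- testes. The spread was widest in *Kpna6*-/- testes, where replicate 3 lay within the range of WT. *Eno4* was called lower in ΔIBB/ΔIBB testes (-0.26 ± 0.048, adjusted p = 0.00176), a call that a fit of all 9 samples did not give (adjusted p = 0.119). In *Kpna6*-/- testes the value was -0.40 ± 0.134 (adjusted p = 0.177), and it was -0.61 (adjusted p = 0.0154) without *Kpna6*-/- replicate 3 and -0.22 (adjusted p = 0.41) without replicate 2. *Eno1*, the ubiquitous enolase, was at 497 ± 20.1 TPM in WT, 534 ± 7.55 in ΔIBB/ΔIBB and 511 ± 25.2 in *Kpna6*-/- testes and was not called in any comparison (adjusted p = 0.849 for ΔIBB/ΔIBB against WT). Part of its sequence is near-identical to *Eno1b*, which held 9.84% of the counts summed over *Eno1* and its 3 near-identical genes. The ratio of *Eno4* to *Eno1* was 0.0935 ± 0.0037 in WT, 0.0789 ± 0.0022 in ΔIBB/ΔIBB and 0.0691 ± 0.019 in *Kpna6*-/- testes. Both mutant groups lay below WT without overlap (log2 differences -0.25 and -0.47, exact permutation p = 0.1 each) and overlapped with each other. The latter difference was -0.29 without *Kpna6*-/- replicate 2 and -0.67 without replicate 3. *Eno4* took 7.98% ± 0.31 of the summed TPM of *Eno4*, *Eno1* and *Eno1b* in WT, and *Eno1* was the largest part. *Eno3*, at 179 ± 6.42 TPM in WT, and *Eno2*, at 0.96 ± 0.03 TPM, were not in this sum.

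Patterns across the 9 testes, which share their group differences, were compared on log2 CPM (counts scaled to library size with the TMM correction for composition). *Gapdhs*, *Pgk2* and *Aldoart1* went together (Pearson's r 0.942 to 0.958 between pairs, a description over 9 samples), and *Ldhb* ran opposite to *Aldoart1* (r = -0.937). *Eno4* had an r of 0.06 with *Gapdhs*. Among 18915 genes, the most alike in pattern were *Arhgap44* for *Gapdhs* (r = 0.994), *Lelp1* for *Pgk2* (0.991), *Pde1a* for *Aldoart1* (0.994), *Ggt7* for *Ldhc* (0.989) and *1700049E17Rik2* for *Eno4* (0.945). For the somatic forms they were *Pnpla1* for *Gapdh* (0.972), *Ktn1* for *Pgk1* (0.988), *Laptm4b* for *Ldhb* (0.996), *Kif1b* for *Ldha* (0.985) and *Sec11c* for *Aldoa* (0.986).

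Other genes of glucose and lactate metabolism moved in both directions. Of 50 listed, 48 were tested, and 9 were higher and 13 lower in ΔIBB/ΔIBB against WT testes (45.8% called, against 36.6% of all genes), with a median log2 fold change of -0.03. With library size only, 15 were higher and 12 lower, and with limma on log2(TPM + 1) 15 and 8. The higher genes were led by *Emb* (1.30 ± 0.112, adjusted p = 2.01e-05), embigin, a partner of monocarboxylate transporters, which was at 5.06 ± 0.69 TPM in WT and 13.7 ± 1.22 TPM in ΔIBB/ΔIBB testes. *Ldhd*, a D-lactate dehydrogenase, rose by 0.98 ± 0.136, and *Pfkl*, the liver-type phosphofructokinase, by 0.94 ± 0.084, from 9.06 ± 0.37 to 18.1 ± 1.78 TPM. *Fbp2*, a fructose bisphosphatase near 1 TPM, rose by 0.92 ± 0.324 and *Pfkfb1* by 0.55 ± 0.144.

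The lower genes included abundant ones. *Slc16a7*, the monocarboxylate transporter MCT2 by which germ cells take up lactate and pyruvate, fell from 371 ± 29.9 to 275 ± 11.2 TPM (-0.55 ± 0.050, adjusted p = 2.53e-05). *Hk1*, the hexokinase with a germ-cell transcript form, fell from 930 ± 48.5 to 789 ± 23.1 TPM (-0.36 ± 0.033, adjusted p = 2.72e-05). *Eno1b* fell by 0.53, *Gpi1* (glucose-6-phosphate isomerase) by 0.33 and *Gpd2* (mitochondrial glycerol-3-phosphate dehydrogenase) by 0.33.

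In *Kpna6*-/- against WT testes, 0 of 48 were called by edgeR, against 1.6% of all genes. At an unadjusted p of 0.05, 1 was higher and 1 lower, where 2778 of 18681 genes tested passed in either direction. DESeq2 called 1, as lower, where it called 428 of 16613 genes. Directly against *Kpna6*-/- testes, 11 were higher and 16 lower in ΔIBB/ΔIBB (56.2% called, against 30.3% of all genes), which turned to 16 higher and 11 lower with library size only and to 13 and 7 with limma on log2(TPM + 1). The direction of this balance thus depends on the scaling. By the test used throughout, *Emb* (1.16), *Ldhd* (0.71), *Pfkl* (0.61), *Hk3* (0.55) and *Pfkfb1* (0.52) led the higher genes and *Eno1b* (-0.59), *Slc16a7* (-0.51), *Gpi1* (-0.39), *Hk1* (-0.37) and *Pfkfb4* (-0.34) the lower. *Hk3* was at 0.81 TPM ± 0.14 in *Kpna6*-/- testes, and its values rest on few reads.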

How the data were processed

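Poly(A) RNA of 9 whole testes was sequenced as paired-end reads by an unstranded kit. Per the labels, kallisto 0.45 and mm10 were used, and the authors deposited estimated counts and TPM per transcript (96626 transcripts). The annotation release was not given in the sources used here. Transcripts were joined to GENCODE M21 by identifier. 95301 belonged to 32035 genes, and 1325 were left out. Counts on genes were 24859751 to 31484692 per testis. Each testis is 1 animal by its label, and p-values measure the spread between them. No table was a duplicate of another, as at most 0.441% of the genes compared held identical counts in any pair.

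Expected counts were summed per gene, rounded and tested with edgeR 4.0.16 (filterByExpr, TMM, quasi-likelihood) on the 6 samples compared, at an adjusted p of 0.05. Ratios were tested by two-sided exact permutation over 20 splits. R 4.3.3, limma 3.58.1, DESeq2 1.42.0 and blastn 2.17.0+ were used, and the fits were tested on simulated data. Exons of *Gapdh* and *Iffo1* overlap by 68 bases on opposite strands, which reads without strand cannot separate. A second *Aldoa* identifier (12.7 TPM ± 0.69 in WT) was not added to *Aldoa*. The named genes are the members, *Gm13394*, *Eno1*, *Kpna6*, near-identical genes with at least 5% of a member's summed counts, the most correlated gene, and up to 5 other glycolysis genes per direction with the largest fold change and at least 1 TPM. Members and lists were chosen with earlier results of these data known. Alternatives were DESeq2, other filters, library-size scaling, all 9 samples in 1 fit, a replicate block, limma on log2(TPM + 1), summed near-identical genes and each testis left out.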

Additional observations from a re-analysis of the deposited data

Results flagged for a closer look

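For 8 members, the change from WT differed between the ΔIBB/ΔIBB and *Kpna6*-/- lines by the direct comparison of both (edgeR, adjusted p below 0.05, 3 testes each). *Gapdh* differed by 1.07 on the log2 scale, *Ldhb* by 0.43 and *Pgk1* by 0.26, all higher in ΔIBB/ΔIBB testes. *Aldoart1* differed by -0.41, *Gapdhs* by -0.38, *Pgk2* by -0.24, *Aldoa* by -0.20 and *Ldhc* by -0.18, all lower in ΔIBB/ΔIBB testes. With *Gm13394* added, the difference of *Gapdh* was 0.65 on counts and 0.38 with limma on log2(TPM + 1), and with all near-identical genes added it was 0.37 on counts. With limma on log2(TPM + 1), the differences of *Pgk2* (-0.09, adjusted p = 0.08), *Ldhc* (-0.02, adjusted p = 0.726) and *Aldoa* (-0.05, adjusted p = 0.18) did not pass.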

How the results depend on the processing

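*Gapdhs*, *Gapdh*, *Pgk1*, *Pgk2*, *Ldhb* and *Aldoart1* kept their call and direction in ΔIBB/ΔIBB against WT testes under 14 alternatives each. Groups of 3 testes limit the ratios to exact permutation p-values of at least 0.1. With limma on log2(TPM + 1), 6, 0 and 5 members were called (ΔIBB/ΔIBB against WT, *Kpna6*-/- against WT, ΔIBB/ΔIBB against *Kpna6*-/-), *Ldha* turned to 0.024 against WT, 15 other glycolysis genes were higher and 8 lower in ΔIBB/ΔIBB testes, 7 were lower against *Kpna6*-/-, and 32 genes in all were called in *Kpna6*-/- against WT, where *Gapdh* was at -0.28 (adjusted p = 0.0699) and *Ldhb* at 0.42 (adjusted p = 0.0535). With library size only, 15 other glycolysis genes were higher. With no filter, 624 genes were called in *Kpna6*-/- against WT, *Eno4* among them (adjusted p = 0.0268), and with each testis left out 92 to 518, the most without WT replicate 1, where 1 other glycolysis gene was higher (range 0 to 1). DESeq2 called 1 other glycolysis gene lower there. With near-identical genes summed, 1 member was called in *Kpna6*-/- testes. Other glycolysis genes higher in ΔIBB/ΔIBB than in *Kpna6*-/- testes were 6 to 11 with a testis left out, 6 without *Kpna6*-/- replicate 3, where *Eno4* was called (0.34, adjusted p = 0.0244), against -0.05 (adjusted p = 0.763) without *Kpna6*-/- replicate 2. In ΔIBB/ΔIBB against WT testes, *Ldha* lost its call without WT replicate 3 (adjusted p = 0.0813), ΔIBB/ΔIBB replicate 1 (0.0884) or ΔIBB/ΔIBB replicate 2 (0.0814). The log2 ratio of *Gapdhs* to *Gapdh* plus *Gm13394* was -0.73 with near-identical genes summed in ΔIBB/ΔIBB against WT, 0.16 in estimated counts and 0.28 with *Gapdh* alone in *Kpna6*-/- against WT, and -1.03, -0.45 and -1.13 in estimated counts, with near-identical genes summed and with *Gapdh* alone in ΔIBB/ΔIBB against *Kpna6*-/-. Apart from the construction of these sums, the causes were not tested.

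Same-numbered testes did not deviate together (correlations -0.06 to 0.08), so the numbers pair no samples. With a replicate block, 6794, 229 and 6033 genes were called in the 3 comparisons, against 6874, 299 and 5674 without it, and 10, 2 and 8 members in both.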

Other observations

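For 2 other pairs of transcripts the groups were compared in the same way. The ratio of *Gapdhs-203* to *Gapdhs-201* was 1.82 ± 0.04 (SD, n = 3) in WT, 1.87 ± 0.06 in ΔIBB/ΔIBB and 1.83 ± 0.08 in *Kpna6*-/- testes, and that of *Ldha-202* to *Ldha-201* was 0.153 ± 0.028, 0.174 ± 0.016 and 0.175 ± 0.031. Between ΔIBB/ΔIBB and WT testes the exact permutation p was 0.2 for the first ratio and 0.3 for the second.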
